A study of Mus musculus with 31 samples.

Results

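The 10 genes described here make and release Wnt proteins: the ligand genes Wnt2b, Wnt3, Wnt3a, Wnt4, Wnt5a, Wnt7a, Wnt7b and Wnt8b, and the secretion factors Wls and Porcn. They were chosen by name, and all 10 were present among the 34865 genes of the bulk table and the 55487 genes of the Smart-seq2 table, matched from Ensembl identifiers to symbols. Bulk RNA-seq covered wild-type diencephalon at embryonic day E10.5 in the mouse, with 3 libraries from its dorsal side and 3 from its ventral side. Smart-seq2, which reads whole transcripts from tiny amounts of RNA, covered medial cortex at E11.5 from embryos carrying Emx1-CreERT2, MADM-11 and the Axin2LacZ allele, with 13 libraries whose label is Axin2-/- (null) and 12 whose label is Axin2+/+ (wild type). Both Smart-seq2 groups carry the Cre and the MADM-11 chromosome, and neither is an unrecombined control. Emx1-CreERT2 is a tamoxifen-inducible Cre driven from Emx1, a gene of the dorsal telencephalon, and MADM-11 (mosaic analysis with double markers) recombines chromosome 11, which holds Axin2, so that mutant and wild-type cells of a mosaic embryo carry different colours. The labels call each Smart-seq2 sample a cell, name no embryo and do not say how many embryos were pooled, so each genotype counts as 1 sample and no test was made between genotypes.

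Wnt proteins are secreted lipid-modified signals. Porcn, an acyltransferase of the endoplasmic reticulum, attaches a fatty acid to the new ligand, and Wls, a membrane carrier, binds that lipid and takes the ligand to the cell surface, after which the retromer returns Wls for further rounds. On receiving cells, ligands such as Wnt3 and Wnt3a act mainly through beta-catenin, which switches on feedback genes such as Axin2, whereas Wnt5a is best known for signalling without it. In the embryonic forebrain the dorsal midline is the classic Wnt source: the cortical hem, at the edge of the medial cortex, makes Wnt2b, Wnt3a, Wnt5a and Wnt8b.

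The rounded bulk libraries held between 17604166 and 20838002 counts. All 7 cortical markers and all 8 thalamic, epithalamic and pretectal markers were higher in dorsal libraries by edgeR, and all 8 hypothalamic markers were higher in ventral libraries. Summed cortical markers lay at 1681 to 1786 counts per 1000000 (CPM) in dorsal libraries, against 46.8 to 57.6 CPM in ventral ones, so the dorsal dissections also carried telencephalic transcripts. Transcripts of 11 small-intestine and exocrine-pancreas genes summed to 7.89 to 8.78 CPM in dorsal libraries, against 4303, 7807 and 2052 CPM in ventral libraries 1, 2 and 3. Epithelial markers were also higher in ventral libraries (5 of 6 tested). Their sums were 20.9 to 23.4 CPM in dorsal and 97.4 to 298 CPM in ventral libraries. The macrophage markers Lyz2 and Ctss were higher in ventral too, while Ptprc, the other 1 tested, was not called. Sums of 6 macrophage markers were 1.63 to 2.83 CPM in dorsal and 6.45 to 42.9 CPM in ventral libraries. Of those too low to test, C1qa had the higher mean in dorsal (0.314 against 0.172 CPM), and Csf1r and C1qb in ventral libraries. The red blood cell markers Hba-x and Hbb-y were higher in dorsal (sums of 6 such markers 60.2 to 124 CPM in dorsal and 27.5 to 48.4 CPM in ventral libraries). The part of these transcripts in the differences below was not tested. Ventral library 3 stood apart, and not only for the Wnt ligands. It had 0 counts of Wnt2b, Wnt3 and Wnt8b and the lowest values of Wls and Wnt5a. It also stood at 0 CPM for other listed genes, such as Wif1, Tcf7 and Lum, that were above 0 in ventral libraries 1 and 2. Values without ventral library 3 are given where it decides a call. Dorsal library 3 stood apart too, with the lowest dorsal value of 7 of the 8 tested members (all but Wnt4), and the member calls stayed at 2 and 0 without it. Summed neural progenitor markers were 666 to 948 CPM in dorsal libraries, against 559 to 579 CPM in ventral ones, but the markers did not move together. Of the 7 markers, 3 were called higher in dorsal (Pax6, Nes and Fabp7) and 4 were not called. Among those not called, Sox2 (80.2 and 120 CPM) and Hes5 (25.7 and 28.6 CPM) had lower means in dorsal than in ventral libraries. In bulk tissue fewer cells of a type cannot be told apart from less RNA per cell.

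Promoter sequences are shown for 4 members, Wnt3 and Wnt3a because 1 and all 3 of their ventral libraries had 0 counts, and Wls and Wnt8b because their levels moved together across the Smart-seq2 libraries. They are RefSeq promoters on GRCm38.p6, from 250 bases before to 50 bases after the annotated start, written 5′ to 3′ on the strand of the gene. The table holds promoters of 7 of the 10 members, without Wnt5a, Wnt7b and Porcn. Capitals mark CAAAG, or CTTTG on the opposite strand, the 5-letter core that TCF and LEF proteins, the DNA-binding partners of beta-catenin, recognise.
Wnt3 (chr11:103773925-103774224, plus strand): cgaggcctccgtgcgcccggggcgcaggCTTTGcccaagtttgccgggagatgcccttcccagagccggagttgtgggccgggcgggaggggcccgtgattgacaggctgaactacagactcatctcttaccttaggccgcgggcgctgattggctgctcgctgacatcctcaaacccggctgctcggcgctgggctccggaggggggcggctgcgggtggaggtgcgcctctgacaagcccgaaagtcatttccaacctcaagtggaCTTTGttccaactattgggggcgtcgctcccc
Wnt3a (chr11:59290702-59291001, minus strand): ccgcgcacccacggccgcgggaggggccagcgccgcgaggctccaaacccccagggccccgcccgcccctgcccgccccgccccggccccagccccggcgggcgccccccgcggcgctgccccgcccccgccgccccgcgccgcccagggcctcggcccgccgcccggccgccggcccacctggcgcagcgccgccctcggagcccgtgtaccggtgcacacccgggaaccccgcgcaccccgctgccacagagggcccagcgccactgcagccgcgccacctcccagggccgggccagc
Wls (chr3:159839400-159839699, plus strand): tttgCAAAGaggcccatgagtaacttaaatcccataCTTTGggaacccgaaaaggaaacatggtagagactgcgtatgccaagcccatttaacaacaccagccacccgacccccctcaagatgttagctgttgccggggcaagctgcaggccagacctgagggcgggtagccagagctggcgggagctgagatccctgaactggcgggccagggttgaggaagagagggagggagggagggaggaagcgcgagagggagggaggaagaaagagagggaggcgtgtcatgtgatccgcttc
Wnt8b (chr19:44493222-44493521, plus strand): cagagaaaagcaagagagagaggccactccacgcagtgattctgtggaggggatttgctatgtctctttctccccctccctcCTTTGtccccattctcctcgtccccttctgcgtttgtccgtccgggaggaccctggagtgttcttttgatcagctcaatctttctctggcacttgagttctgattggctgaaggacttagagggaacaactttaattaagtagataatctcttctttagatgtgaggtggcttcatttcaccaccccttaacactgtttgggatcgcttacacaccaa

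Wnt3 and Wls each held 2 of these cores, Wnt8b held 1 and Wnt3a held 0, whereas 53.9% of the 32851 promoters in the table held at least 1. The longer letters ATCAAAG, which contain the core, occurred in 0 of the 7 members and in 3.73% of all promoters. Neither TATAAA (13.6% of all promoters) nor GGGTGGTC, the core bound by GLI proteins (0.807%), occurred in a member. CCAAT was found in Wnt2b, Wnt3 and Wnt8b and in 37.4% of all promoters. Every motif was searched on both strands. The windows differed in composition: Wnt3a was 86.3% G and C with 45 CpG dinucleotides, against 48.3% and 6 CpG in Wnt8b, and the median over all promoters was 52.7% with 7 CpG. These are counts of letters in 300 bases and do not show binding.

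The first comparison sets dorsal against ventral diencephalon. Of the 8 members with a mean of at least 1 CPM over the 6 libraries, 2 were higher in dorsal diencephalon at an adjusted p below 0.05, Wnt7b and Wnt5a, where 7.14% of all 14701 genes tested were called higher in dorsal. By edgeR 0 were higher in ventral, where 9.54% of all genes were called. At an unadjusted p below 0.05 edgeR gave 4 members higher in dorsal and 0 in ventral, and DESeq2 called 3 and 0 after adjustment. In 5 of the 8 tested members every dorsal library lay above every ventral one (Wnt3, Wnt4, Wnt5a, Wnt7b and Wls), as in 19.0% of all genes, and in 1, Wnt7a, every dorsal library lay below, as in 20.0% of all genes. The median log2 fold change was 1.09 over the 8 members and 0.01 over all genes tested.

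**Figure D1:**
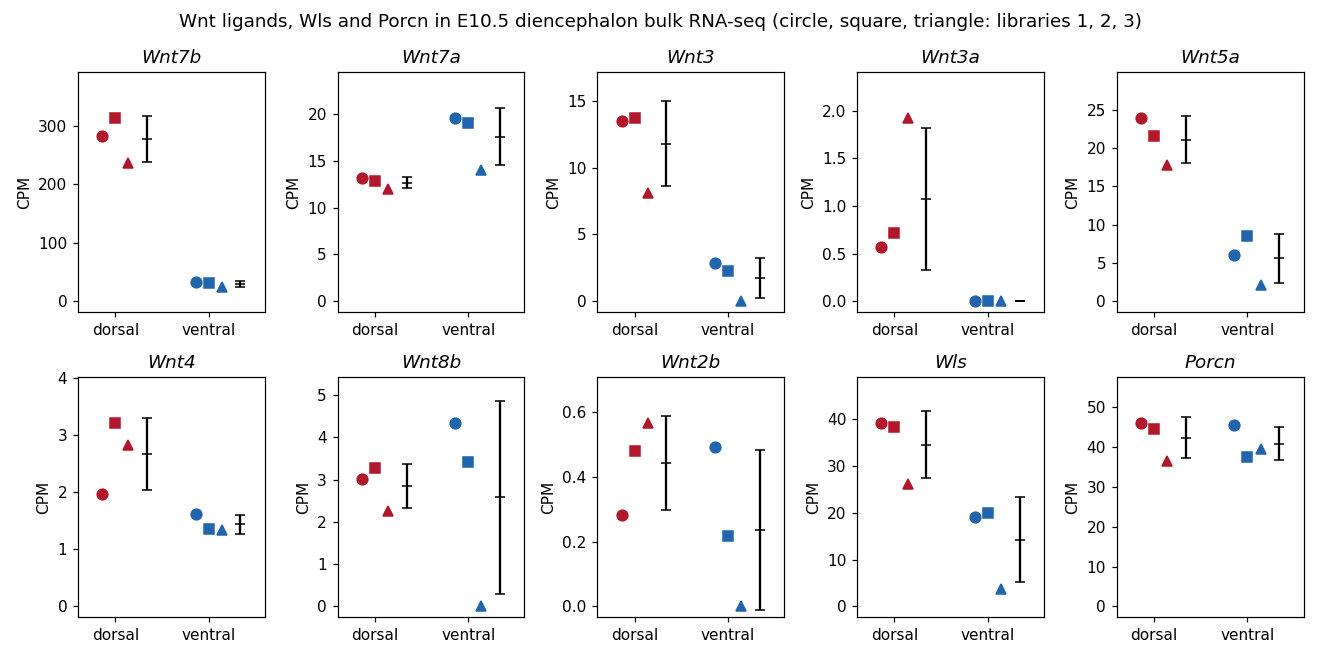
CPM (vertical axes, each starting near 0) of the 10 members in dorsal (red) and ventral (blue) diencephalon, 1 point per library, with the mean ± SD over 3 libraries as a bar beside them. Wnt7b lies at 236 to 314 CPM in dorsal libraries and at 24.1 to 32.2 CPM in ventral ones, Porcn overlaps, and the triangle of ventral library 3 lies at 0 for Wnt2b, Wnt3 and Wnt8b.

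Wnt7b, a ligand that brain vessels need for their growth (ENSMUSG00000022382, chr15:85535437-85582473, minus strand, GRCm38), was the most abundant ligand in dorsal tissue. It measured 282, 314 and 236 CPM in dorsal libraries, against 32.2, 31.4 and 24.1 CPM in ventral libraries. The ranges were far apart, with means of 277 ± 39.1 and 29.3 ± 4.44 CPM (SD, n = 3 each), a 9.48-fold higher level in dorsal. The log2 fold change was 3.24 (SE 0.20, edgeR adjusted p = 8.81e-05), and every alternative setting kept the call. An antisense gene, AU022754, overlaps its exons, and reads of the pair could not be separated if counting ignored strand.

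Wnt7a, the closest relative of Wnt7b and a ligand of the same brain receptor complex (ENSMUSG00000030093, chr6:91363981-91411363, minus strand), ran the other way. Its dorsal libraries stood at 13.2, 12.9 and 12.01 CPM and its ventral libraries at 19.6, 19.03 and 14.1 CPM. The ranges did not overlap, but the difference did not pass the threshold (12.7 ± 0.615 and 17.6 ± 3.05 CPM, log2 fold change −0.47, SE 0.25, 95% interval −1.06 to 0.12, adjusted p = 0.257). Without ventral library 3 it did, higher in ventral (−0.64, adjusted p = 0.0479).

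Wnt5a, the ligand of beta-catenin-independent signalling (ENSMUSG00000021994, chr14:28504750-28527448, plus strand), measured 23.96, 21.6 and 17.8 CPM in dorsal libraries, against 6.02, 8.54 and 2.17 CPM in ventral ones. All 3 dorsal libraries were above all 3 ventral ones, and the dorsal mean was 3.78-fold higher at 21.1 ± 3.11 against 5.58 ± 3.21 CPM. The log2 fold change was 1.92 (SE 0.48, adjusted p = 0.0296). The call was lost when dorsal library 1 was left out (1.81, adjusted p = 0.109), when dorsal library 2 was (1.89, adjusted p = 0.0883) or when ventral library 1 was (1.97, adjusted p = 0.0934). The antisense gene Gm2670 overlaps its exons.

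Wnt3 and Wnt3a, which both signal through beta-catenin and lie on chromosome 11, were low or at 0 counts in ventral tissue. Wnt3 (ENSMUSG00000000125, chr11:103774150-103817957, plus strand) measured 13.5, 13.7 and 8.10 CPM in dorsal libraries, against 2.86, 2.27 and 0 CPM in ventral ones. Its dorsal mean was 6.88-fold the ventral mean (11.8 ± 3.18 and 1.71 ± 1.51 CPM), yet the test missed the threshold (log2 fold change 2.77, SE 1.07, 95% interval 0.31 to 5.24, adjusted p = 0.122). Without ventral library 3, the library at 0, it passed at 2.16 (adjusted p = 0.00515), as it did with DESeq2 (2.75, adjusted p = 0.0351). Wnt3a (ENSMUSG00000009900, chr11:59248033-59290752, minus strand), the hem ligand that hippocampal growth depends on, had 12, 15 and 34 counts in dorsal libraries and 0 counts in each ventral library. Its dorsal mean of 1.07 ± 0.745 CPM was 20.2-fold the level that 3 counts over the 3 ventral libraries would give. That ratio allows for counting error in the ventral libraries only, not for the spread between libraries. Wnt3a had a mean over the 6 libraries below the minimum for testing. With no minimum it passed the threshold (adjusted p = 0.00915).

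Wnt4, Wnt8b and Wnt2b were low as well. Wnt4, best known from kidney and ovary development (ENSMUSG00000036856, chr4:137277489-137299726, plus strand), measured 1.97, 3.22 and 2.83 CPM in dorsal libraries, against 1.63, 1.35 and 1.34 CPM in ventral ones, without overlap and without passing the test (log2 fold change 0.89, SE 0.54, 95% interval −0.37 to 2.15, adjusted p = 0.315). Wnt8b, a ligand of the hem and the adjoining forebrain midline (ENSMUSG00000036961, chr19:44493472-44514273, plus strand), stood at 3.01, 3.27 and 2.27 CPM in dorsal libraries and at 4.34, 3.41 and 0 CPM in ventral ones. The ventral values enclosed the dorsal ones, and the log2 fold change of 0.14 had a 95% interval from −2.60 to 2.87 (adjusted p = 0.953). Without ventral library 3, the library at 0, both remaining ventral values lay above every dorsal one, and the log2 fold change was −0.48 (adjusted p = 0.406). Wnt2b (ENSMUSG00000027840, chr3:104945272-104961921, minus strand) had 6, 10 and 10 counts in dorsal libraries and 10, 4 and 0 in ventral ones, too few to test.

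The secretion factors did not share a pattern. Wls (ENSMUSG00000028173, chr3:159839672-159938664, plus strand) measured 39.2, 38.3 and 26.2 CPM in dorsal libraries, against 19.04, 19.95 and 3.73 CPM in ventral ones. The regions did not overlap, with means of 34.6 ± 7.24 and 14.2 ± 9.11 CPM, a 2.43-fold difference that missed the threshold (log2 fold change 1.28, SE 0.55, 95% interval 0.01 to 2.55, adjusted p = 0.160). Without ventral library 3 the log2 fold change was 0.79, and it passed (adjusted p = 0.0416). Porcn (ENSMUSG00000031169, chrX:8193848-8206525, minus strand) measured 46.0, 44.5 and 36.5 CPM in dorsal libraries and 45.4, 37.6 and 39.4 CPM in ventral libraries. Its libraries were interleaved, and the log2 fold change was 0.05 (SE 0.19, 95% interval −0.38 to 0.49, adjusted p = 0.882).

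Levels of different genes were compared after dividing counts by exon length and scaling each library to 1000000 (length-scaled level). In dorsal libraries Wnt7b led at 183 ± 40.2, followed by Porcn at 45.7 ± 9.54. Wnt7a, Wls, Wnt3 and Wnt5a came next at 12.9 ± 1.82, 12.8 ± 3.72, 12.5 ± 4.30 and 8.74 ± 2.04, and within this run each overlapped its neighbour. Wnt8b (2.66), Wnt4 (2.03), Wnt3a (1.19) and Wnt2b (0.333) closed the order. In ventral libraries Porcn led at 36.3 ± 4.66, and Wnt7b at 15.8 ± 1.497 overlapped Wnt7a at 14.7 ± 1.71. Below them came Wls at 4.18 ± 2.56, then Wnt8b, Wnt5a and Wnt3 between 1.90 and 1.42, Wnt4 at 0.908, Wnt2b at 0.145 and Wnt3a at 0.

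The make-up of the ligand pool was compared as shares. Among the 19 Wnt genes of the mouse, Wnt7b took 79.4%, 79.9% and 77.5% of the summed length-scaled level in dorsal libraries, against 38.6%, 38.4% and 41.0% in ventral ones. Wnt7a took 5.74%, 5.06% and 6.09% in dorsal libraries, against 36.3%, 35.9% and 36.9% in ventral ones. Ventral library 3 lay close to the other ventral libraries for both shares, and the 2 regions were separate for both. The sum of the 19 genes was 249, 268 and 178 in dorsal libraries, against 44.8, 41.4 and 34.9 in ventral libraries, 5.73-fold higher in dorsal. Without Wnt7b the other 18 genes summed to 48.4 ± 7.40 in dorsal and 24.5 ± 3.55 in ventral libraries, 1.97-fold higher. Length-scaled levels were not TMM-scaled, and their folds leaned further to dorsal than CPM folds. Porcn, at 42.3 and 40.8 CPM in dorsal and ventral libraries, stood at 45.7 and 36.3 on the length-scaled level. The exact two-sided permutation test gave p = 0.1 for each of these shares and sums, the smallest that 3 against 3 libraries can give, and the smallest adjusted value over the 24 such tests made was 0.185.

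**Figure D2:**
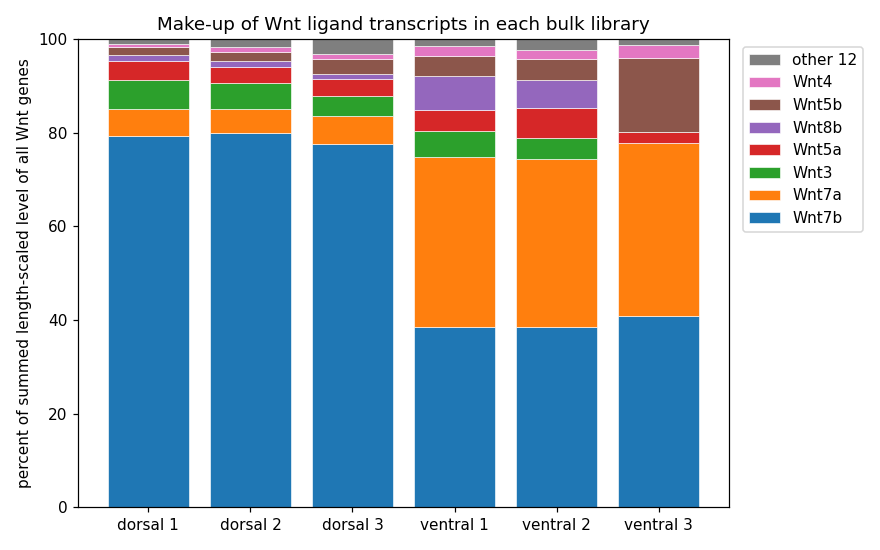
Percent of the summed length-scaled level of the 19 Wnt genes (vertical axis, 0 to 100) held by each ligand in each bulk library, dorsal libraries on the left. Wnt7b fills 77.5% to 79.9% of the dorsal bars and 38.4% to 41.0% of the ventral bars, and Wnt7a fills 35.9% to 36.9% of the ventral bars.

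Set against the ligands they serve, the secretion factors took different places. For each 100 units of the summed length-scaled ligand level there were 6.15, 5.44 and 4.80 units of Wls in dorsal libraries, against 12.7, 13.6 and 3.52 in ventral ones, and the ranges overlapped through ventral library 3 (exact permutation p = 0.4). For Porcn there were 21.1, 18.5 and 19.6 units in dorsal libraries, against 88.8, 75.0 and 109 in ventral ones. The Porcn ranges were separate (exact permutation p = 0.1). Porcn itself stood at 45.7 in dorsal and 36.3 in ventral libraries, and the ligand sum was 5.73-fold higher in dorsal. The Porcn ratio therefore mostly restates the difference in the ligand sum.

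Of the 19 Wnt genes 7 passed the minimum for testing. By edgeR Wnt7b and Wnt5a were called, and DESeq2 also called Wnt3. Wnt5b, a relative of Wnt5a outside the 10 genes, measured 4.29 ± 1.10 CPM in dorsal libraries, against 2.997 ± 1.79 CPM in ventral ones (adjusted p = 0.586). Wnt9a, which lies on chromosome 11 next to Wnt3a, had 13, 13 and 12 counts in dorsal libraries and 0 in each ventral one. Its dorsal mean was 12.1-fold the level that 3 counts over the 3 ventral libraries would give. For Wnt9b, the chromosome 11 neighbour of Wnt3, that ratio was 8.38-fold. Both ratios allow for counting error only, not for the spread between libraries. Both were chosen after their values were seen. Wnt1, Wnt3a, Wnt8a, Wnt9a, Wnt9b and Wnt10b had 0 counts in all ventral libraries, and Wnt2 had 0 counts in all dorsal libraries. Wnt1, Wnt8a and Wnt10b had only 5, 5 and 6 counts over all dorsal libraries, and Wnt2 had 1 over all ventral ones. Their zeros are too close to the floor to set the regions apart.

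The trafficking of Wls was measured through 7 genes of the retromer, sorting nexin and p24 families. By edgeR 0 were higher in dorsal and 0 in ventral, DESeq2 gave the same counts, and 1 had an unadjusted p below 0.05, higher in ventral, with either tool. Tmed2, a p24 cargo receptor, measured 306 ± 86.6 CPM in dorsal libraries, against 353 ± 35.1 CPM in ventral ones. Vps35, the retromer core, measured 238 ± 51.6 CPM in dorsal libraries, against 305 ± 53.2 CPM in ventral ones. Of 9 tested genes that hold or modify Wnt proteins outside the cell, 1 was higher in dorsal and 2 in ventral, beside 7.14% and 9.54% of all genes. The glypican Gpc1, a cell-surface heparan sulfate proteoglycan, was higher in dorsal at 193 ± 30.4 CPM, against 70.5 ± 4.55 CPM (adjusted p = 0.00144). The glypican Gpc3 was lower in dorsal at 6.78 ± 0.317 CPM, against 32.7 ± 2.06 CPM, and Sulf1, a sulfatase that trims heparan sulfate, at 5.01 ± 1.198 CPM, against 63.7 ± 7.02 CPM.

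Of 12 tested Wnt targets and feedback genes, 4 were higher in dorsal (Tnfrsf19, Sp8, Nkd1 and Axin2) and 1 in ventral, Dkk1, a secreted inhibitor, while 7 were not called. Over all genes tested 7.14% were called higher in dorsal and 9.54% higher in ventral. Nkd1, a feedback inhibitor, measured 91.9, 104 and 97.7 CPM in dorsal libraries, against 25.002, 20.8 and 17.7 CPM in ventral libraries (log2 fold change 2.21, SE 0.19, adjusted p = 0.000312). Of 11 tested genes of the roof plate and cortical hem, 8 were higher in dorsal and 3 were not called, against the same 7.14% of all genes. Those not called split: the mean of Msx1 was lower on the dorsal side (log2 fold change −0.91, edgeR adjusted p = 0.309), and those of Bmp7 and Ttr were higher. Genes of this list too low to test split as well. Bmp4, Bmp6, Gdf7 and Msx2 had the lower mean on the dorsal side, and Lmx1b the higher. Rspo3, a secreted enhancer of Wnt reception, measured 61.0 ± 1.76 CPM in dorsal libraries, against 2.96 ± 1.17 CPM in ventral ones.

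The second comparison sets Axin2-null against wild-type cells of the medial cortex, in TPM (transcripts per 1000000), a length-scaled unit that keeps no depth. Axin2 itself did not separate the labels: it ranged from 0 to 22.4 TPM with a median of 3.28 TPM in null-labelled libraries, against 4.32 to 35.9 TPM with a median of 13.2 TPM in wild-type-labelled ones. It reached 1 TPM in 11 of 13 null-labelled libraries, and 8 of the 13 lay below the lowest wild-type-labelled library. A TPM over the whole gene does not show which exons the reads came from, so directions below rest on the labels. Libraries held 7863 to 11852 genes at 1 TPM or more in the null-labelled group (median 10791) and 8693 to 12209 in the wild-type-labelled group (median 11271). Summed cortical markers lay at 255 to 576 TPM in null-labelled libraries and at 317 to 610 TPM in wild-type-labelled ones, with all 7 markers at 1 TPM or more in at least 50% of the libraries of each group. Every library also held red blood cell transcripts, summing to 1818 to 37229 TPM in null-labelled and 640 to 23194 TPM in wild-type-labelled libraries. Mesenchyme markers summed to 31.4 to 264 TPM (median 71.4) in null-labelled and 26.9 to 284 TPM (median 137) in wild-type-labelled libraries. Endothelium markers summed to 0.63 to 47.5 TPM (median 11.9) in null-labelled and 1.71 to 69.6 TPM (median 25.04) in wild-type-labelled libraries. Among these genes only Kdr was lower by 2-fold or more in null-labelled libraries. By median, macrophage sums were also lower in null-labelled libraries, and red blood cell and epithelial sums higher. The gene CT010467.1 took up to 31.2% of all TPM in a null-labelled and up to 32.7% in a wild-type-labelled library. Mitochondrial genes took 0.384% to 5.71% (median 1.84%) in null-labelled libraries, against 2.11% to 8.80% (median 3.40%) in wild-type-labelled ones. The part of these in the differences below was not tested.

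Of the 10 members 7 averaged 1 TPM or more across all 25 libraries. In 1 of the 7, Wls, mean log2(TPM + 1) was lower in null-labelled libraries by 2-fold or more, a size reached by 8.14% of the 13680 genes with such a mean. In 0 of the 7 it was higher by 2-fold or more, as it was in 1.39% of those genes. The median difference was −0.65 over the 7 members and −0.22 over all those genes.

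**Figure D3:**
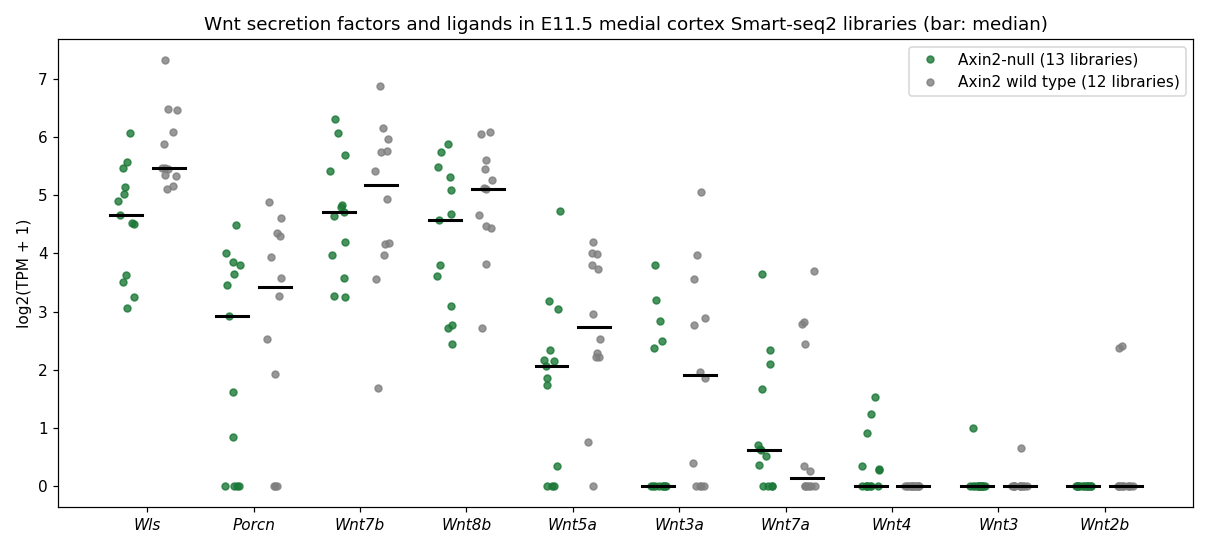
log2(TPM + 1) (vertical axis) of the 10 members in 13 Axin2-null (green, left of each pair) and 12 Axin2 wild-type (grey) libraries, 1 point per library, with the median as a bar. Wls, Wnt7b and Wnt8b are above 0 in all 25 libraries, Wls has 9 null-labelled libraries below the lowest wild-type-labelled one, and Wnt2b, Wnt3 and Wnt4 lie mostly at 0.

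Wls, the ligand carrier, was detected in all 25 libraries. It ranged from 7.34 to 65.8 TPM with a median of 24.2 TPM in null-labelled libraries, against 33.5 to 159 TPM with a median of 43.3 TPM in wild-type-labelled ones. The groups overlapped, but 9 of 13 null-labelled libraries lay below the lowest wild-type-labelled library and 4 of 12 wild-type-labelled libraries lay above the highest null-labelled one. The means were 27.4 ± 17.2 and 61.3 ± 36.2 TPM (SD over 13 and 12 libraries), and the difference of mean log2(TPM + 1), null minus wild type, was −1.24. It was −0.82 with medians over libraries in place of means and −0.99 without the 3 libraries with the fewest detected genes, all of them null-labelled, so 2 of these settings put it short of 2-fold. Porcn, the acyltransferase, ranged from 0 to 21.4 TPM with a median of 6.55 TPM in null-labelled libraries and from 0 to 28.5 TPM with a median of 9.84 TPM in wild-type-labelled ones. The groups covered much the same range, with a difference of −0.58, and Porcn reached 1 TPM in 8 of 13 null-labelled libraries (61.5%, exact 95% interval 31.6% to 86.1%) and in 9 of 12 wild-type-labelled ones (75.0%, 42.8% to 94.5%).

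Wnt7b and Wnt8b were the main ligands of these libraries and were found together in all 25. Wnt7b ranged from 8.54 to 78.5 TPM with a median of 25.1 TPM in null-labelled libraries, against 2.23 to 116 TPM with a median of 35.6 TPM in wild-type-labelled ones, a difference of −0.20 on the log2 scale. Wnt8b ranged from 4.41 to 57.8 TPM with a median of 22.8 TPM in null-labelled libraries, against 5.59 to 67.3 TPM with a median of 33.6 TPM in wild-type-labelled ones, a difference of −0.65. For both genes the groups overlapped over nearly their whole range. Together they made up 45.3% to 97.5% of the summed TPM of the 19 Wnt genes in null-labelled libraries (median 75.4%) and 37.5% to 87.2% in wild-type-labelled ones (median 73.8%). Wnt7b was the highest ligand in 10 of 13 null-labelled and 5 of 12 wild-type-labelled libraries. Wnt8b led in 3 null-labelled and 4 wild-type-labelled libraries, and in the remaining wild-type-labelled libraries Wnt5a led in 2 and Wnt5b in 1.

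The hem ligands Wnt5a and Wnt3a were found in some libraries and listed at 0 in others. Wnt5a reached 25.6 TPM in null-labelled libraries with a median of 3.17 TPM, against 17.4 TPM with a median of 5.75 TPM in wild-type-labelled ones, and the difference was −0.91. It was detected in 9 of 13 null-labelled and 10 of 12 wild-type-labelled libraries. Wnt3a reached 12.9 TPM with a median of 0 TPM in null-labelled libraries, against 32.2 TPM with a median of 2.76 TPM in wild-type-labelled ones, with a difference of −0.74. It was detected in 5 of 13 null-labelled libraries (38.5%, 13.9% to 68.4%) and 7 of 12 wild-type-labelled libraries (58.3%, 27.7% to 84.8%), and the intervals overlap widely. Both were present in 4 null-labelled and 6 wild-type-labelled libraries. Wnt3a lies on chromosome 11, which MADM-11 recombines, and a part of that in its values was not tested.

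The other 4 ligands had a median of 0.53 TPM or less in each group. Wnt7a reached 1 TPM in 4 null-labelled and 4 wild-type-labelled libraries, with highest values of 11.51 TPM in null-labelled and 11.96 TPM in wild-type-labelled libraries and a difference of −0.06. Wnt4 reached at most 1.90 TPM in null-labelled libraries, where 2 of 13 passed 1 TPM, and was listed at 0 in all 12 wild-type-labelled ones. Wnt3 reached 1 TPM in 1 null-labelled library and at most 0.570 TPM in wild-type-labelled ones. Wnt2b was listed at 0 in all 13 null-labelled libraries (upper limit of the exact 95% interval 24.7% of libraries) and reached 4.28 and 4.18 TPM in 2 of the wild-type-labelled ones.

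**Figure D4:**
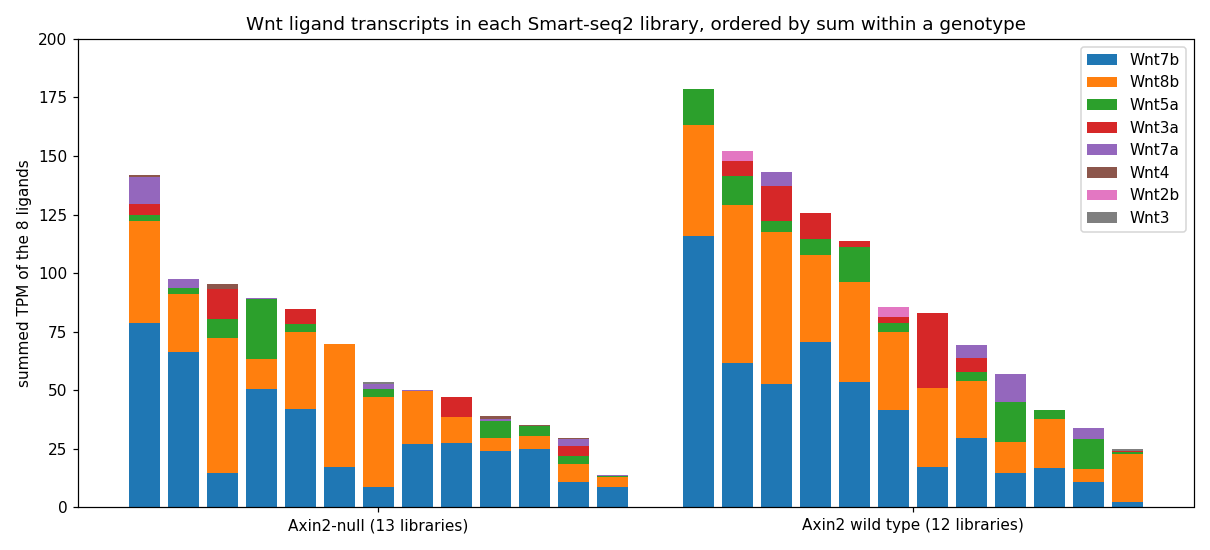
Summed TPM of the 8 ligands (vertical axis, from 0) in each Smart-seq2 library, coloured by ligand and ordered by sum within each genotype, null-labelled libraries on the left. Sums run from 13.96 to 142 TPM in null-labelled and from 24.8 to 179 TPM in wild-type-labelled libraries, and Wnt7b and Wnt8b fill most bars.

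Summed over the 8 ligands, null-labelled libraries held 13.96 to 142 TPM with a median of 53.7 TPM, and wild-type-labelled libraries 24.8 to 179 TPM with a median of 84.3 TPM. The sums overlapped over most of their range. Each library held 2 to 5 of the 8 ligands at 1 TPM or more, with a median of 4 in each group. For each 100 TPM of the 19 Wnt genes there were 7.66 to 85.2 TPM of Wls in null-labelled libraries (median 40.5). In wild-type-labelled libraries there were 26.8 to 147 TPM of Wls (median 58.3). Porcn per 100 TPM ran the other way by median, at 15.7 (0 to 78.2) in null-labelled and 6.88 (0 to 63.7) in wild-type-labelled libraries. Wls and Porcn were detected together in 8 of 13 null-labelled and 9 of 12 wild-type-labelled libraries. By mean TPM the order in null-labelled libraries was Wnt7b, Wls, Wnt8b, Porcn, Wnt5a, Wnt3a, Wnt7a, Wnt4, Wnt3 and Wnt2b. In wild-type-labelled libraries Wls came before Wnt7b and Wnt8b, Porcn to Wnt7a kept their places, and Wnt2b, Wnt3 and Wnt4 came last. Every neighbouring pair in either order overlapped.

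Across the 25 libraries, with each gene centred on the mean of its genotype, Wls went most closely with Wnt8b among the other 4 members found in at least 50% of the libraries (Pearson r = 0.671 over 25 libraries, 0.689 within 13 null-labelled and 0.637 within 12 wild-type-labelled ones). With Wnt7b it was 0.350 and with Porcn −0.287, and Wnt7b with Wnt8b was 0.427. Among 9580 genes found in at least 50% of the libraries, the 3 whose pattern was most like Wls were Rspo2, a secreted enhancer of Wnt reception (r = 0.758, 0.906 within null-labelled and 0.595 within wild-type-labelled libraries), Metrn (0.753) and Rgs16 (0.735). For Wnt8b they were the growth factor gene Fgf17 (0.781), Hmga2 (0.778) and Metrn (0.776), so Metrn stood among the closest 3 of both. For Wnt7b they were Smn1 (0.818), Ola1 (0.769) and Elavl1 (0.750), for Wnt5a Sh2d3c (0.790), C2cd5 (0.765) and Slc25a44 (0.747), and for Porcn Plac9b (0.750), Pifo (0.735) and Zfp703 (0.709). These are the highest of many values, libraries share differences in depth and blood content, and the coefficients are given as a description.

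**Figure D5:**
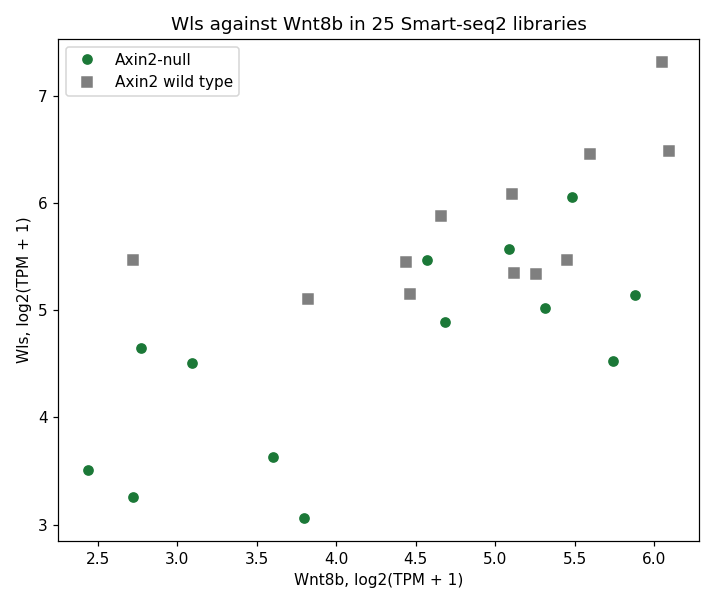
Wls (vertical axis) against Wnt8b (horizontal axis), both as log2(TPM + 1), in 13 Axin2-null (green circles) and 12 Axin2 wild-type (grey squares) libraries. Libraries high in Wnt8b tend to be high in Wls within each genotype (r = 0.689 and 0.637), and the green circles lie lower on the Wls axis.

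The rest of the pathway gave few differences of 2-fold in the Smart-seq2 libraries. Of the 7 Wls trafficking genes 0 were past 2-fold in either direction, and their median difference was −0.24, against −0.22 over all 13680 genes. The 2 highest were Snx3, at 260 ± 60.5 TPM in null-labelled and 263 ± 97.6 TPM in wild-type-labelled libraries, and Tmed2, at 253 ± 119 and 269 ± 120 TPM. Vps35, lower than these, averaged 62.3 ± 28.2 TPM in null-labelled and 89.3 ± 47.3 TPM in wild-type-labelled libraries. Of 10 genes that hold or modify Wnt proteins outside the cell 2 were lower by 2-fold or more in null-labelled libraries, both glypicans, beside 8.14% of the 13680 genes. Gpc4 ranged from 6.21 to 77.6 TPM (median 21.04) in null-labelled libraries, against 14.5 to 113 TPM (median 75.1) in wild-type-labelled ones, a difference of −1.34, and Gpc6 from 0 to 16.2 TPM (median 7.35), against 4.17 to 37.1 TPM (median 14.1), a difference of −1.60. Among 12 Wnt targets Axin2 was the only one past 2-fold, at −1.37, beside the same 8.14% of all genes, and Nkd1 stood at −0.16. Axin2 is the gene that the group labels name, so its difference is not a separate reading of the pathway. Bulk and Smart-seq2 values come from different regions, days and scales, and no level was compared across them.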

How the data were processed

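The bulk table that the authors deposited is named TPM but was read as estimated counts, because of column sums of 17604411 to 20838226 and whole numbers (tolerance 0.0001) in 46.6% of the entries above 0. How those estimated counts were made before deposit is not given in the sources used here, beyond tool names. The deposited Smart-seq2 table holds TPM, whose depth is unknown. STAR 2.7.0a, Trimmomatic and featureCounts are named with mm10 and GRCm38, per the submitters' processing notes. Whether counting used strand is not given in the sources used here. Estimated counts were rounded, scaled by TMM and tested with edgeR 4.0.16 (R 4.3.3, quasi-likelihood F test, region as the only term) over all genes averaging 1 CPM or more, with Benjamini-Hochberg adjustment at 0.05 over all genes tested. CPM values are TMM-scaled. Exon lengths, symbols and gene coordinates came from GENCODE M21 (GRCm38). Wnt4, Wnt5a and Wls had values that were not whole numbers before rounding.

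Separate embryos are not stated for the 3 libraries of either region, so p-values measure the spread between libraries, which may be technical. No 2 libraries of a region agreed within sampling noise (mean chi-square per gene at least 7.95, and 105 and 117 for dorsal library 3 against the other dorsal libraries). For ventral library 3 against ventral libraries 1 and 2 it was 64.8 and 85.5, against 18.2 between ventral libraries 1 and 2. Smart-seq2 columns name a genotype, not a numbered sample. Intervals of shares are exact (Clopper-Pearson, 95%) and cover counting error only. Detection means 1 TPM or more. Alternatives were DESeq2 1.42.0, its size factors in edgeR, no minimum, limma-trend (limma 3.58.1) on log2(CPM + 1), a replicate block, each library left out, and for Smart-seq2 another pseudocount, medians, other detection thresholds and fewer libraries. The edgeR fit was tested on simulated data. All 10 members are described, other pathway genes come from fixed lists (at most 3 called genes per direction, or the 2 highest where none was called), and like genes are the 3 with the highest correlation. A few uncalled or untested genes of these lists are also named, chosen after their values were seen. Some genes of these lists are not reported here. Members, lists and tests were chosen with earlier results of these data known.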

Additional observations from a re-analysis of the deposited data

How the results depend on the processing

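Of 88 bulk fold changes recomputed for single members, 75 kept direction and side of the threshold, 6 passed it only under the alternative, 3 lost the call (all Wnt5a, given above) and 4 changed sign. Leaving out 1 library at a time gave log2 fold changes of Wnt8b from −0.48 (without ventral library 3) to 0.73 and of Porcn from −0.022 to 0.16, below 0 without dorsal library 1 (−0.022), ventral library 2 (−0.0088) or ventral library 3 (−0.0043). Members called higher in dorsal numbered 1 to 4 with 1 library left out (4 without ventral library 3: Wnt3, Wnt5a, Wnt7b and Wls) and 4 with no minimum level (Wnt3, Wnt3a, Wnt5a and Wnt7b), and members higher in ventral 0 to 1 (Wnt7a). Over all genes, dorsal calls ranged from 500 (without dorsal library 1) to 1695 (without ventral library 3), and ventral calls from 839 to 1928 without the same libraries. The cause was not tested. With the replicate number as a block, 924 genes were called for dorsal and 1083 for ventral, and the member calls stayed at 2 and 0. Deviations of same-numbered libraries correlated at 0.099, 0.148 and 0.165, and 4 of 6 libraries correlated best with their own number. These values do not settle whether the numbers pair the libraries. The labels state no pairing, so the block was kept as an alternative only.

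In the Smart-seq2 libraries 39 of 40 recomputed differences moved by less than 1 SD between libraries, a wide yardstick here. The difference of Wnt7a, −0.06, turned to 0.33 with log2(TPM + 0.1), 0.48 with medians and 0.13 without the libraries with the fewest detected genes. That of Wnt3a was −1.50 with log2(TPM + 0.1) and −1.91 with medians, and that of Wnt2b −0.91 and 0.00. That of Wnt4 was 1.28 with log2(TPM + 0.1), as it is listed at 0 in all wild-type-labelled libraries. Scaling TPM without CT010467.1 and mitochondrial genes, a setting chosen after seeing the data, left Wls at −1.29. Detection shares left their exact 95% interval in 8 of 40 cases with another detection threshold. Ligands under 1 CPM could not be tested in bulk, and with no depth known a TPM of 0 gives no limit on level.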

Other observations

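Among Wnt genes outside the 10, Wnt10a was found at 1 TPM or more in 6 of 13 null-labelled libraries (46.2%, exact 95% interval 19.2% to 74.9%) and in 1 of 12 wild-type-labelled libraries (8.33%, 0.211% to 38.5%), with a highest value of 6.02 TPM in null-labelled and 2.7 TPM in wild-type-labelled libraries. Its difference of mean log2(TPM + 1) was 0.88, against −0.22 as the median of all genes that averaged 1 TPM or more. Wnt6 reached 1 TPM in 3 null-labelled libraries and was listed at 0 in all wild-type-labelled ones. Wnt9a was detected in 3 null-labelled and 6 wild-type-labelled libraries, and Wnt5b in 8 null-labelled and 10 wild-type-labelled ones. These genes were chosen after their values were seen, and no test between genotypes was possible.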
